A study of Mus musculus with 27 samples.

Results

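The Runx transcription factors of the mouse thyroid were described through 4 genes, taken by name. They are Runx1, Runx2 and Runx3, which encode the DNA-binding subunits of core binding factor, and Cbfb, which encodes their shared partner. They were 4 of 54532 gene rows, and all 4 passed the filter on low counts. The family was chosen by the measured level of Runx1, which was higher in normal-looking thyroid of exposed mice than in thyroid of non-exposed mice, so its values against non-exposed thyroid are given as a description with no test. The data were 3′ end RNA counts of 27 laser-captured thyroid samples in 3 groups of 9. PL were proliferative lesions of mice exposed to radiation, NT was normal-looking tissue near the lesions of those same 9 mice (numbered here as their replicates), and NCT was normal thyroid of 9 mice that were not exposed. Each group had 6 females and 3 males. Every exposed mouse bore a lesion, so exposure, bearing a lesion and lying next to one cannot be told apart. The sources used here do not give dose, strain or age.

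RUNX proteins bind a short DNA motif through their Runt domain. CBFβ does not itself contact DNA but strengthens that binding. They switch target genes on or off depending on the coregulators they recruit. Runx1 is best known as a regulator of blood cell formation that is also used in many epithelia, Runx2 as the regulator of bone formation, and Runx3 as a factor of cytotoxic T cells and other lymphocytes. All 3 are known as partners of the SMAD proteins downstream of TGFβ and BMP signals.

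Runx1 lies on chromosome 16 (chr16:92601466-92826149, minus strand), Runx2 on chromosome 17 (chr17:44495987-44814797, minus strand), Runx3 on chromosome 4 (chr4:135120652-135177990, plus strand) and Cbfb on chromosome 8 (chr8:105170674-105217989, plus strand) of GRCm38. The distal promoter is where the 3 Runx genes resemble each other in sequence. RefSeq promoter windows of build GRCm38.p6, from 250 bases before to 50 bases after a transcription start, were found for 4 of 4 members, with a second window each for Runx1 and Runx3. Both strands were searched for the RUNX core AACCACA. The longest run of letters shared on the gene strand by one window each of Runx1, Runx2 and Runx3 was the 18 bases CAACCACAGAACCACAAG, which hold the core 2 times. It is set in capitals in the stretches below, read 5′ to 3′ on the strand of the gene, which are shown because they carry it.
Runx1 (chr16:92826025-92826054, minus strand): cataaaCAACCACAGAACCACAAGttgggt
Runx2 (chr17:44814583-44814612, minus strand): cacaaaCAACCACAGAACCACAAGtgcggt
Runx3 (chr4:135120503-135120532, plus strand): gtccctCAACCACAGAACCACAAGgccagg
The shared run began at base 27 from the start of Runx1, at base 22 from the start of Runx2 and at base -136 relative to the start of Runx3. It was present in 4 of 32851 promoter windows (0.0122%), those of the 3 Runx genes that defined it and that of Gm16225, which overlaps the Runx3 window on the other strand. The core was present in 1731 windows (5.27%). Neither the second windows of Runx1 and Runx3 nor the window of Cbfb held the core. A match in letters is a description, and 3′ end reads do not tell from which promoter a transcript started.

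Libraries held 2923851 to 14148601 counts, with medians of 6479022 in PL, 7220957 in NT and 4622595 in NCT. Levels below are CPM, read counts scaled to a common library size with TMM factors (trimmed mean of M values). Tg, the thyroglobulin gene that marks the thyroid follicle, stood at 9736 CPM or more in all 27 libraries. Markers of other tissues stood out in 6 libraries, which held over 2000 CPM of Pth, the parathyroid hormone gene, or of Lipf, a gastric lipase gene. These were NCT replicates 5, 8 and 9 and, among exposed mice, lesion 2 and the normal tissue of mice 7 and 9. Several results, not all, are also given without them. RNA came from areas of tissue, so fewer cells of a type and less RNA per cell cannot be told apart in any value below. Reads of overlapping genes on the opposite strand were few for Runx1 (1 read in all libraries together, from Gm26626) and absent for Runx3. Runx2 overlaps Supt3, which had 6 to 149 reads per library, and the antisense gene Runx2os1, with 61 reads in all. Whether strands were told apart in counting is not given in the sources used here, so the low values of Runx2 are uncertain to that extent.

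Runx1 was higher in both tissues of the exposed mice than in thyroid of non-exposed mice. It had 14.6 CPM in the lowest PL library, 29.2 in the median and 52.7 in the highest, against 19.7, 34.7 and 46.6 in NT and 8.20, 15.6 and 23.6 in NCT. The NCT libraries were thus the low ones, and 8 of 9 NT libraries and 6 of 9 PL libraries lay above every NCT library. Means were 29.7 ± 11.3 CPM in PL, 34.1 ± 7.40 in NT and 16.9 ± 5.27 in NCT (SD, n = 9 each). As a description, the NT level was 2.03-fold that of NCT (log2 fold change 1.02, SE 0.19) and the PL level 1.75-fold (0.80, SE 0.23). The NCT libraries are shared by these comparisons, so they are not independent of each other or of the choice of the gene.

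Within the exposed mice Runx1 did not pass the test between lesion and normal tissue. It was lower in the lesion in 6 of 9 mice and higher in mice 1, 4 and 9, with log2 differences between -1.40 in mouse 8 and 0.72 in mouse 9. The log2 fold change of PL against NT was -0.26 (SE 0.19, edgeR's quasi-likelihood test with the mouse as a block, adjusted p = 0.539). Its 95% interval ran from 0.628-fold to 1.12-fold, so both a fall and a small rise lie within it. The same NT libraries entered the choice of the family, which favours lower values in the lesion here. The order of the levels was NT, PL and NCT, and the first pair of neighbours did not differ beyond their spread in this test.

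**Figure D1:**
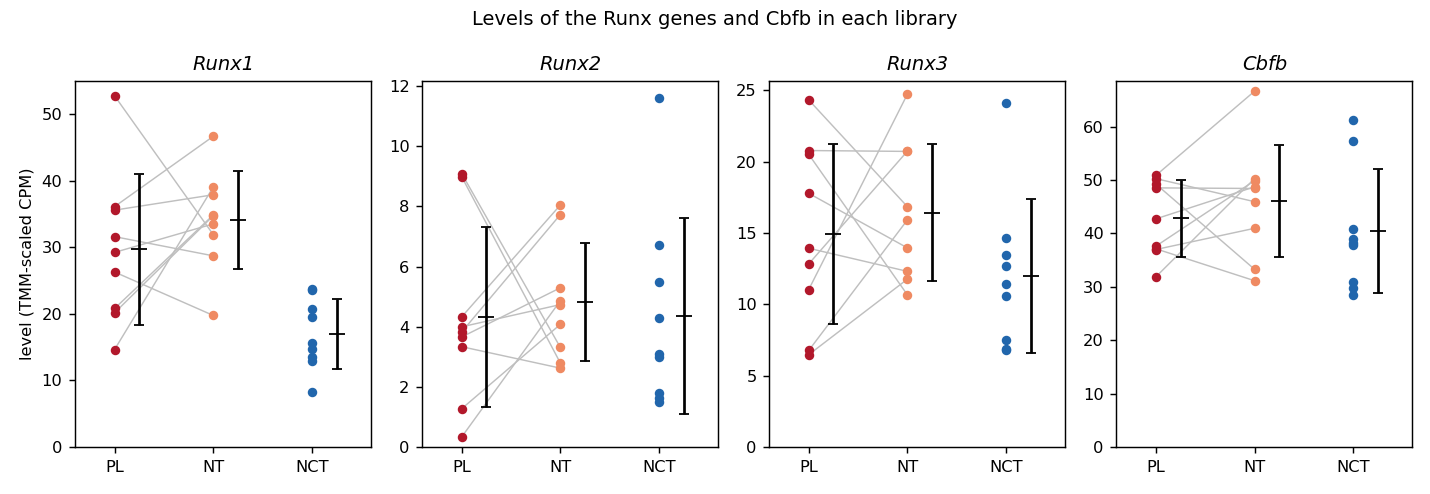
Levels of Runx1, Runx2, Runx3 and Cbfb in TMM-scaled CPM (vertical axis, each from 0) in the 9 libraries of PL, NT and NCT. Grey lines join PL and NT of the same mouse, and black marks show mean ± SD. For Runx1, 8 of 9 NT and 6 of 9 PL libraries lie above every NCT library, while no group stands apart for the other genes.

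In both sexes the range of Runx1 was shifted upward in NT against NCT, with overlap in females. These are parts of the values by which the family was chosen, so they are no independent support. In females Runx1 had 20.8 to 36.1 CPM in PL, 19.7 to 46.6 in NT and 8.20 to 23.6 in NCT (n = 6 each). In males it had 14.6 to 52.7 CPM in PL, 31.9 to 39.0 in NT and 19.4 to 23.6 in NCT (n = 3 each). NT and NCT did not overlap in males, and overlapped in females through NT replicate 1. The share of all genes with no overlap between so few libraries was not computed. With females alone the log2 difference of NT against NCT was 1.19 and that of PL against NCT 1.01.

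Mouse numbers fall into blocks with the same leading digits, whose meaning is not given in the sources used here. Mice numbered from 30291 supplied 3 libraries of each group. Their Runx1 levels were 14.6, 35.6 and 36.1 CPM in PL, 37.9, 39.0 and 46.6 CPM in NT and 19.4, 23.6 and 23.6 CPM in NCT. NT lay above NCT in this block as well, whereas 1 of the 3 lesions lay below every NCT library of it. The block too is a part of the values by which the family was chosen, so it is no independent support. Another block, 30260, held 3 NCT mice at 8.20 to 13.4 CPM and no exposed mouse. With the block as a covariate the log2 difference was 0.89 (SE 0.18) for NT against NCT and 0.62 (SE 0.25) for PL against NCT. For NCT replicate 4 the labels give 2 mouse numbers that fall in different blocks, and with the other number these values were 0.82 (SE 0.16) and 0.65 (SE 0.23).

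None of the other members passed the test in any of the 3 comparisons. Of the 4 members 0 passed between PL and NT, where 3.08% of the 14461 genes tested were called. Of the 3 members tested between NT and NCT 0 passed, against 0.0277% of 14447 genes, and of the same 3 between PL and NCT 0 passed, against 10.1% of 14234 genes. At an unadjusted p under 0.05 the counts with edgeR's quasi-likelihood test were 0 in each comparison too, as were those of the DESeq2 Wald test and of limma-voom at an adjusted p under 0.05.

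Runx2 had few reads, 2 to 123 counts per library. It had 0.330, 3.82 and 9.09 CPM in the lowest, median and highest PL library, 2.62, 4.73 and 8.05 CPM in NT and 1.501, 3.08 and 11.6 CPM in NCT. The groups overlapped throughout, and lesions spread widely around their mean of 4.31 ± 2.99 CPM (SD, n = 9). The log2 fold change was -0.41 (SE 0.47, adjusted p = 0.710) for PL against NT, 0.16 (SE 0.38, adjusted p = 0.909) for NT against NCT and -0.02 (SE 0.48, adjusted p = 0.989) for PL against NCT. The interval of the first ran from 0.373-fold to 1.51-fold, which takes in both a fall and a rise. The sign of the PL against NCT value turned in several alternatives.

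Runx3 had 6.47, 13.9 and 24.3 CPM in the lowest, median and highest PL library, 10.7, 15.9 and 24.7 CPM in NT and 6.77, 11.4 and 24.1 CPM in NCT. The median was highest in NT, and the ranges overlapped. The log2 fold change was -0.21 (SE 0.24, adjusted p = 0.705) for PL against NT, 0.44 (SE 0.23, adjusted p = 0.472) for NT against NCT and 0.29 (SE 0.28, adjusted p = 0.574) for PL against NCT. One NCT library, replicate 5, stood at 24.1 CPM and was also one of those high in Pth. Without it the value was 0.65 (SE 0.22, adjusted p = 0.245) for NT against NCT and 0.50 (SE 0.27, adjusted p = 0.268) for PL against NCT. In males Runx3 had 13.9 to 24.3 CPM in PL, 12.3 to 20.7 in NT and 6.77 to 14.7 in NCT, and in females 6.47 to 20.5 CPM in PL, 10.7 to 24.7 in NT and 7.46 to 24.1 in NCT.

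Cbfb averaged 42.8 ± 7.14 CPM in PL, 46.1 ± 10.5 in NT and 40.4 ± 11.6 in NCT (SD, n = 9 each), with library values between 28.5 and 66.7 CPM. Groups overlapped, and the direction between PL and NT was split over the mice, 4 higher and 5 lower. The log2 fold change was -0.10 (SE 0.13, adjusted p = 0.747) for PL against NT, 0.20 (SE 0.16, adjusted p = 0.664) for NT against NCT and 0.08 (SE 0.15, adjusted p = 0.826) for PL against NCT. The interval for PL against NT ran from 0.768-fold to 1.13-fold.

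**Figure D2:**
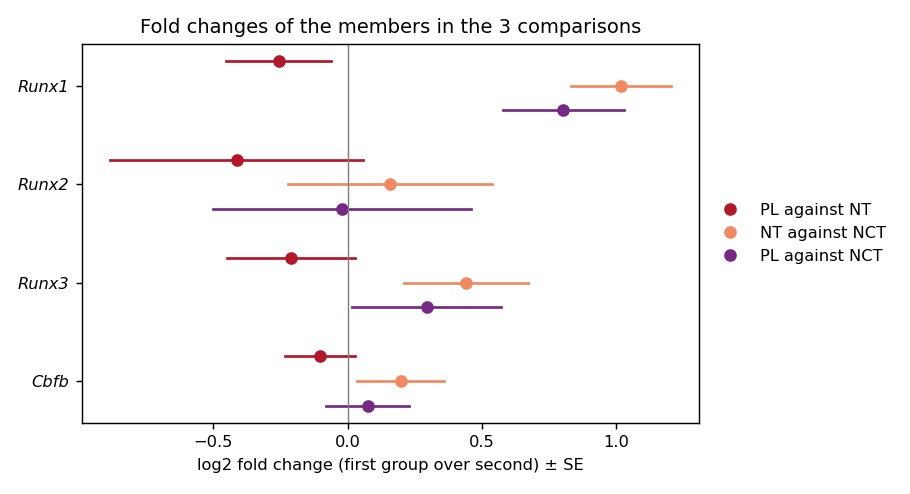
Log2 fold changes (horizontal axis) of the 4 members in the comparisons PL against NT, NT against NCT and PL against NCT, with lines of ± SE. Runx1 stands at 1.02 for NT against NCT and 0.80 for PL against NCT, and the other members lie between -0.41 and 0.44.

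Runx1 was set beside markers of epithelium, thyroid follicle and blood cells, since it is used in both epithelial and blood cells. Each marker score was the mean log2 CPM of its list. All 18 leukocyte markers had positive log2 values between NT and NCT (median 0.49, against 0.01 over all genes), 16 of 18 were negative between PL and NT (median -0.29) and 14 of 18 were positive between PL and NCT (median 0.19). None of these passed with edgeR, 3, 6 and 2 had an unadjusted p under 0.05 in PL against NT, NT against NCT and PL against NCT, and DESeq2 called 0, 0 and 1. Without the libraries high in Pth or Lipf edgeR called 1 between PL and NCT. Here and below, list counts at an unadjusted p under 0.05, or with DESeq2 or limma-voom, stand without the share of all genes. So do the counts without the libraries or mice high in Pth or Lipf. No excess over all genes can be read from them. The summed level of the leukocyte markers was 207 to 868 CPM in PL, 362 to 1120 CPM in NT and 265 to 712 CPM in NCT, so the ranges overlapped, and no marker was at 0 in a group. The order of the medians, NT above PL above NCT, was that of Runx1.

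With the leukocyte score as a covariate the Runx1 difference was 0.93 (SE 0.20) for NT against NCT and 0.72 (SE 0.22) for PL against NCT. It was -0.13 (SE 0.18, adjusted p = 0.794) for PL against NT. Of 18 general epithelial markers 15 were positive between NT and NCT (median 0.17) and 15 between PL and NCT (median 0.28). With that score as a covariate the Runx1 difference was 0.98 (SE 0.20) for NT against NCT and 0.88 (SE 0.24) for PL against NCT. Adipocyte markers were lower in NT, where all 9 tested had negative log2 values against NCT (median -1.48). None of them passed with edgeR or limma-voom, 3 did with DESeq2, and 9 had an unadjusted p under 0.05. Between PL and NCT all 9 were negative as well (median -1.78). There 0 passed with edgeR, 6 with DESeq2 and 7 with limma-voom, and 8 had an unadjusted p under 0.05. The part of adipocyte markers in the Runx1 values was not tested. Airway epithelial markers were low in lesions, where 5 of 8 tested fell against NT (median -3.39, 0 called without the mice high in Pth or Lipf), and their part was not tested either. Beside this and the following edgeR counts, 3.08% of all genes were called between PL and NT. Between NT and NCT the share was 0.0277%, and between PL and NCT 10.1%. Of 9 markers of C cells, the calcitonin cells of the thyroid, 6 fell between PL and NT (4 without the mice high in Pth or Lipf). Between PL and NCT 6 of the 9 fell and 1 rose (8 called without the libraries high in Pth or Lipf). Between NT and NCT 0 were called by edgeR, DESeq2 or limma-voom, with 5 lower at an unadjusted p under 0.05. Of 13 fibroblast markers 1 fell between PL and NT (0 called without the mice high in Pth or Lipf). Between PL and NCT 4 fell (1 called without those libraries). Thyroid follicle markers had 2 higher and 2 lower of 18 between PL and NT (0 called without the mice high in Pth or Lipf). They had 5 higher and 3 lower of 19 between PL and NCT (5 called without the libraries high in Pth or Lipf). Between NT and NCT 0 of 19 were called with edgeR (3 at an unadjusted p under 0.05, DESeq2 1, limma-voom 0). The part of C cell, fibroblast and follicle markers in the Runx1 values was not tested.

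All 18 macrophage markers had positive log2 values between NT and NCT (median 0.60, 0 called by edgeR, DESeq2 or limma-voom, 7 at an unadjusted p under 0.05) and all 18 negative between PL and NT (median -0.34). Between PL and NT only Cd163, a scavenger receptor of resident macrophages, passed with edgeR, with 6.45 ± 6.24 CPM in PL and 16.9 ± 4.54 CPM in NT (-1.84 on the log2 scale, SE 0.44, adjusted p = 0.0422). With limma-voom, or without the mice high in Pth or Lipf, 0 of the 18 were called. Of the 18 general epithelial markers 12 were positive and 6 negative between PL and NT (median 0.11), with 4 higher and 4 lower at an unadjusted p under 0.05. The 2 called by edgeR were both lower in PL. They were the tight junction gene Cldn4 (-1.24, SE 0.18, adjusted p = 0.00599) and the keratin gene Krt7 (-0.60, SE 0.15, adjusted p = 0.0413). Epcam, an epithelial adhesion molecule, rose in PL against NCT (0.42, SE 0.10, adjusted p = 0.0104) and was at 0.33 (SE 0.09, adjusted p = 0.0601) against NT. Between PL and NCT edgeR called 2 of the 18, Epcam higher and Cldn4 lower, where 10.1% of all genes were called. In the 18 fits without 1 library Cldn4 stood at -0.99 to -0.77 and stayed called. Its call against NCT ended in 2 of 14 other alternatives. The Krt7 call ended in 7 of 9 fits without 1 mouse (adjusted p = 0.0570 to 0.0966), all except those without mouse 5 or 9, and without the mouse block (adjusted p = 0.229). Without the libraries high in Pth or Lipf the calls of Cldn4 against NT (adjusted p = 0.0505) and of Epcam against NCT (adjusted p = 0.0758) ended as well. In females alone adjusted p was 0.0819 for Cldn4 and 0.236 for Krt7 against NT and 0.188 for Epcam against NCT. The Krt7 call ended also with the leukocyte score (adjusted p = 0.0706) or the epithelial score (adjusted p = 0.0503) as a covariate, and the Epcam call with the epithelial score (adjusted p = 0.0829). Fits without 1 mouse aside, the Krt7 call ended in 5 of 11 alternatives.

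Across libraries of 1 group Runx1 followed none of the marker scores past the threshold. In all, 48 relations were computed, of 4 members with 3 scores within PL, NT and NCT and over the 9 paired differences. With the leukocyte score Runx1 correlated at r = 0.54 in PL, 0.24 in NT and 0.26 in NCT, and at 0.59 over paired differences (exact permutation p = 0.0960, adjusted p = 0.373). Spearman's rho of the paired differences was 0.77 (exact permutation p = 0.0214, adjusted p = 0.345), and r was 0.69 without the 2 mice farthest from the median score. So mice whose lesion had the lower leukocyte score tended to have the lower Runx1 level there, but the relation failed the correction.

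With the general epithelial score Runx1 correlated at r = -0.62 in PL (exact permutation p = 0.0743, adjusted p = 0.373, rho = -0.65), and at -0.07 in NT, 0.23 in NCT and -0.09 over paired differences. Without the 2 farthest libraries the value in PL was -0.90 (n = 7, exact permutation p = 0.00516, not adjusted). With the thyroid follicle score it was 0.61 in PL (adjusted p = 0.373), -0.37 in NT and -0.58 in NCT (adjusted p = 0.373), and 0.51 over paired differences. The PL value rested on 2 libraries, since without them it was -0.05, and with a summed score in place of a mean one it was -0.41.

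**Figure D3:**
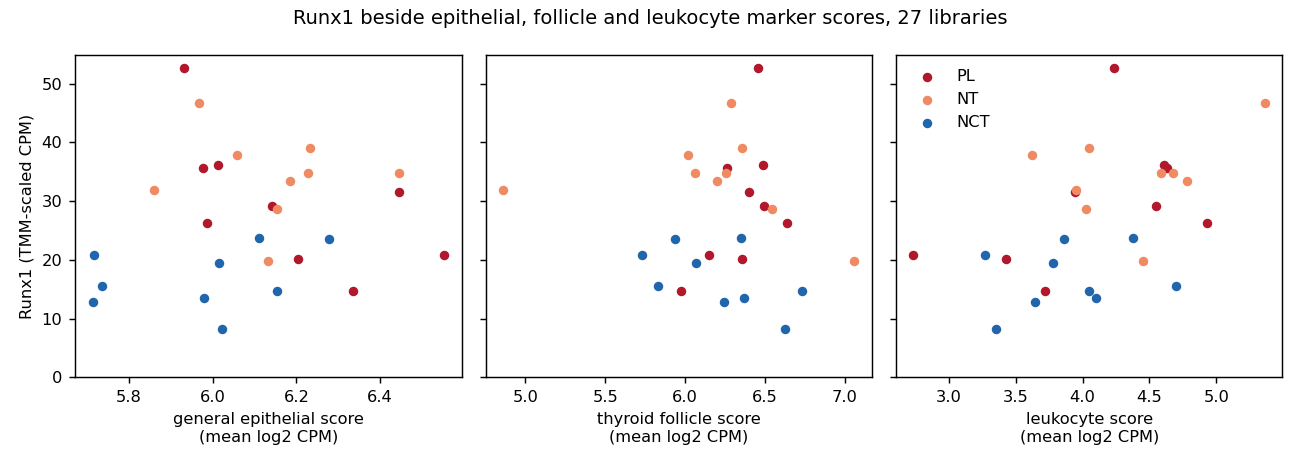
Runx1 in TMM-scaled CPM (vertical axis) against the general epithelial, thyroid follicle and leukocyte scores (horizontal axes, mean log2 CPM of each list) in 27 libraries, coloured by group. NCT libraries are low in Runx1, at 8.20 to 23.6 CPM, over their whole range of scores.

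Runx2 was the member whose relation with the leukocyte score passed the threshold, over paired differences. Over the 9 paired differences of PL minus NT its log2 level correlated with the leukocyte score at r = 0.95 (exact permutation p = 0.000152, adjusted p = 0.00728) and rho = 0.93 (exact permutation p = 0.000750, adjusted p = 0.0360). Of the 48 relations 1 passed, this one, and whether it differed from those of the other members was not tested. Both differences were positive in mice 1, 7 and 9 and negative in the other 6 mice. Without the 2 mice farthest from the median score r was 0.84 (n = 7, exact permutation p = 0.0167), and leaving out 1 mouse at a time gave 0.90 to 0.97. Without the 3 mice that had a library high in Pth or Lipf r was 0.97 over 6 mice (adjusted p = 0.169). Within groups r was 0.78 in PL (adjusted p = 0.204), 0.69 in NT (adjusted p = 0.279) and 0.50 in NCT (adjusted p = 0.463). The PL value fell to 0.06 without 2 libraries.

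Finer marker scores, chosen after the data were seen, gave 20 more relations over paired differences, adjusted over these 20 alone. Runx2 correlated with macrophage markers at r = 0.95 (exact permutation p = 0.000130, adjusted p = 0.00259) and with T and NK cell markers at 0.88 (exact permutation p = 0.000832, adjusted p = 0.00832). It was at 0.70 with endothelial markers (adjusted p = 0.151), 0.13 with B and plasma cell markers and -0.10 with fibroblast markers. Whether these values differ from each other was not tested, and the scores share libraries. Runx1 was at 0.62 with macrophage and 0.59 with T and NK cell markers (adjusted p = 0.239 and 0.279).

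Runx3 correlated with the leukocyte score at 0.67 over paired differences, 0.44 in PL, 0.68 in NT and 0.75 in NCT, with adjusted p from 0.229 to 0.577. For Cbfb the same relations were at 0.08, 0.11, -0.52 and 0.08.

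**Figure D4:**
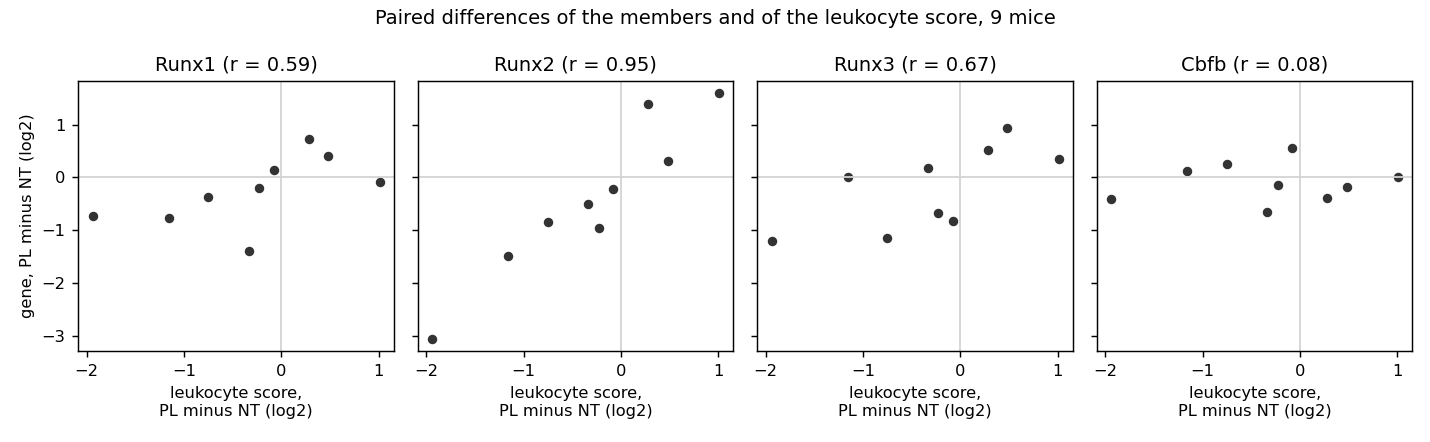
Paired log2 differences, PL minus NT, of each member (vertical axis) against those of the leukocyte score (horizontal axis), 1 point per mouse (9 mice), with Pearson's r above each panel. Runx2 lies closest to a line (r = 0.95) and Cbfb has r = 0.08.

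The genes whose log2 level was most like that of Runx1 over the 27 libraries were named by Pearson's r among 8881 protein-coding genes with at least 10 CPM on average. They were Cbarp, a regulator of calcium channels (r = 0.79), Apobec1, an RNA-editing cytidine deaminase (0.77), Rap2b, a small GTPase (0.77), Slc38a6, an amino acid transporter family member (0.76), and Plekhg2 (0.75). After the group means were taken out they were Mob3a (0.81), the homeobox gene Hlx (0.79), Slc38a6 (0.77), Cln3, a lysosomal membrane protein (0.76), and Nfkbiz, a nuclear regulator of NF-κB (0.74). Any gene outside these lists lies lower by definition, so the fixed markers below carry their rank from the highest r. Ptprc, the common leukocyte antigen, was at 0.47 over all libraries (rank 432) and 0.46 with group means taken out (rank 447). Spi1, a myeloid transcription factor, was at 0.35 and 0.22 (ranks 1077 and 1943). Epcam was at 0.08 and -0.39 (ranks 3417 and 7808), Cdh1 at 0.02 and -0.32 (4077 and 7272), and Tg at -0.63 and -0.47 (8811 and 8238). These are descriptions, since PL and NT share mice and all libraries share composition effects.

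Few partners and coregulators of the RUNX proteins passed the test. Of 25 such genes, Cbfb among them, 1 rose and 1 fell between PL and NT, where 3.08% of all genes were called (median -0.00, against 0.00 over all genes). Between NT and NCT 0 were called by edgeR, DESeq2 or limma-voom, with 3 at an unadjusted p under 0.05. Between PL and NCT 3 fell, where 10.1% of all genes were called (median 0.04). Without the libraries high in Pth or Lipf the counts called were 0 between PL and NT and 2 between PL and NCT.

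Cbfa2t3, which encodes ETO2, a corepressor of blood cell regulators, was lower in the lesion in 9 of 9 mice. It had 19.96, 41.1 and 63.7 CPM in the lowest, median and highest PL library, against 42.4, 65.1 and 84.9 CPM in NT and 44.0, 57.9 and 86.6 CPM in NCT. PL overlapped both other groups, whose ranges were nearly the same. The log2 fold change was -0.65 (SE 0.14, adjusted p = 0.0225) against NT and -0.62 (SE 0.18, adjusted p = 0.0260) against NCT. The first call ended without mouse 2, 3, 4 or 8 (adjusted p = 0.0509 to 0.0698), without the mouse block (adjusted p = 0.0600) and without the mice high in Pth or Lipf (-0.74, adjusted p = 0.0779), and in females alone (-0.64, adjusted p = 0.192). The second ended without PL replicate 1 or 8 or NCT replicate 7 or 8 (adjusted p = 0.0503 to 0.0569). It ended too in 5 of 14 other alternatives. Among these were females alone (-0.61, adjusted p = 0.162), the fit without the libraries high in Pth or Lipf (-0.51, adjusted p = 0.166), the epithelial score (-0.56, adjusted p = 0.0940) and the number block (-0.73, adjusted p = 0.0875).

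Tle1, a corepressor of the Groucho family that binds the end of RUNX proteins, was higher in the lesion in 8 of 9 mice. It had 34.3, 58.1 and 77.9 CPM in the lowest, median and highest PL library, against 30.7, 32.9 and 50.3 CPM in NT and 27.7, 40.4 and 68.5 CPM in NCT. Most lesions lay above the NT range, with overlap. The log2 fold change was 0.64 against NT (SE 0.14, adjusted p = 0.0270) and 0.35 against NCT (SE 0.17, adjusted p = 0.200). The call ended without mouse 1, 2, 3, 4, 7 or 8 (adjusted p = 0.0506 to 0.0787) and without the mice high in Pth or Lipf (0.63, adjusted p = 0.143). It ended also with the leukocyte score (0.60, adjusted p = 0.0526) or the epithelial score (0.61, adjusted p = 0.0523) as a covariate and in females alone (0.65, adjusted p = 0.205).

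Tle4, of the same family, fell in lesions against non-exposed thyroid. It averaged 37.8 ± 11.1 CPM in PL, 49.0 ± 14.4 CPM in NT and 60.7 ± 12.2 CPM in NCT (SD, n = 9 each). PL against NCT gave -0.70 (SE 0.17, adjusted p = 0.00847), and leaving out any 1 of the 18 libraries did not end the call. It ended with the number block as a covariate (-0.55, adjusted p = 0.0991). Runx1t1, which encodes the ETO corepressor that is fused to RUNX1 in human leukaemia, had 3.66, 11.2 and 21.9 CPM in the lowest, median and highest PL library, 7.79, 14.7 and 18.7 CPM in NT and 14.9, 17.8 and 29.3 CPM in NCT. Its levels were lowest in 2 male lesions, replicates 8 and 9. PL against NCT gave -0.95 (SE 0.28, adjusted p = 0.0339). That call ended without PL replicate 1, 3, 7, 8 or 9 or NCT replicate 2, 6 or 8 (adjusted p = 0.0501 to 0.0713). It ended too in 5 of 14 other alternatives. In females alone the value was -0.55 (adjusted p = 0.322), without the libraries high in Pth or Lipf -0.97 (adjusted p = 0.107), with the epithelial score -1.02 (adjusted p = 0.0720) and with the number block -1.14 (adjusted p = 0.106).

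**Figure D5:**
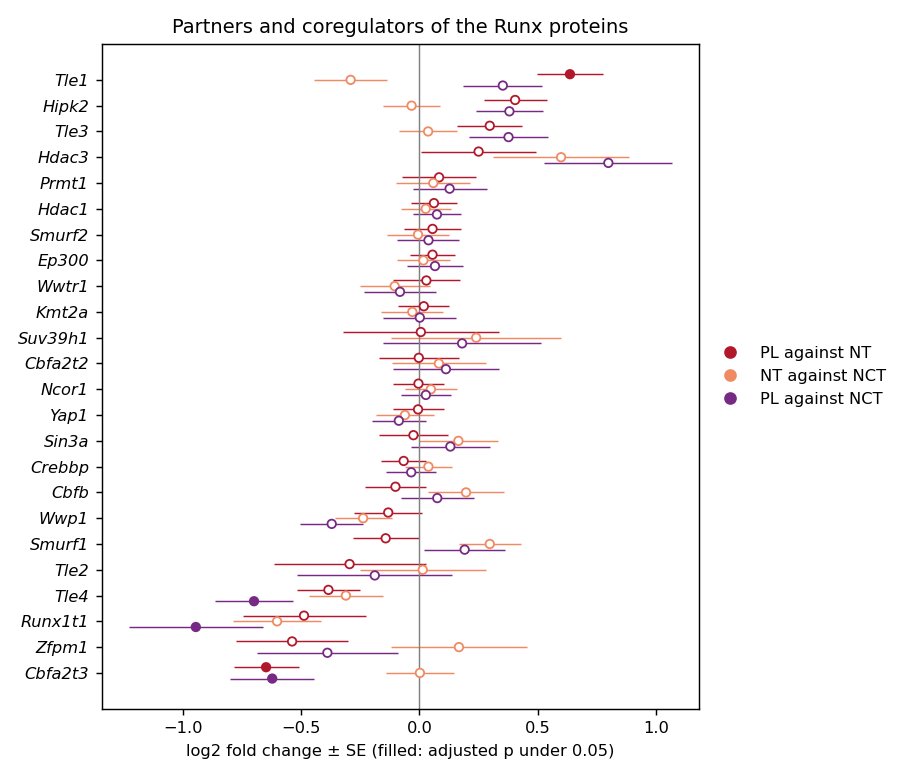
Log2 fold changes ± SE (horizontal axis) of partners and coregulators of RUNX proteins in the 3 comparisons, ordered by PL against NT, with filled points for an adjusted p under 0.05. Filled points are Tle1 and Cbfa2t3 in PL against NT, and Tle4, Runx1t1 and Cbfa2t3 in PL against NCT.

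Upstream, the TGFβ and BMP ligands, receptors and SMADs held 0 calls of 17 between PL and NT with edgeR, 3 at an unadjusted p under 0.05, and 2 calls each with DESeq2 and limma-voom. Smad1, a BMP-regulated SMAD, was at 0.56 (SE 0.15, adjusted p = 0.0509) and the ligand Tgfb2 at -1.45 (SE 0.38, adjusted p = 0.0664). Against NCT Smad1 rose, with 55.4 ± 16.2 CPM in PL and 34.5 ± 5.57 CPM in NCT (0.66, SE 0.16, adjusted p = 0.00900). Fits without 1 library aside, that call ended in 3 of 14 alternatives. Among these were females alone (0.50, adjusted p = 0.168) and the number block (0.63, adjusted p = 0.0841). Between NT and NCT none passed with any of the 3 tools, and 1 had an unadjusted p under 0.05.

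Known targets of the RUNX proteins were mostly below the filter or not called. Of 17 blood targets of Runx1, 12 were tested between PL and NT, with a median of -0.29, and 0 passed with edgeR (3 at an unadjusted p under 0.05, DESeq2 2, limma-voom 0). Between NT and NCT, where Runx1 itself was higher, 12 were tested with a median of 0.11, and 0 passed with any of the 3 tools (1 at an unadjusted p under 0.05). Between PL and NCT, where Runx1 was higher too, 11 were tested with a median of -0.22, 4 positive and 7 negative. With edgeR and limma-voom 0 of these passed, DESeq2 called 1, and 3 had an unadjusted p under 0.05. Without the libraries high in Pth or Lipf edgeR called 1. Spi1 had 17.6 ± 9.97 CPM in PL, 19.6 ± 12.0 CPM in NT and 13.3 ± 7.56 CPM in NCT, with log2 values of -0.23, 0.54 and 0.38 in PL against NT, NT against NCT and PL against NCT.

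Of 14 bone and cartilage targets of Runx2, 5 were tested between PL and NT and 4 between PL and NCT. The osteoblast genes Bglap2 and Ibsp had no read in any library. Between PL and NCT Spp1, the gene of osteopontin, which macrophages and epithelia also make, rose (2.61, SE 0.78, adjusted p = 0.0435) and Alpl, an alkaline phosphatase gene, fell (-1.74, SE 0.46, adjusted p = 0.0167). Spp1 averaged 106 ± 109 CPM in PL, 42.4 ± 25.8 CPM in NT and 17.2 ± 23.2 CPM in NCT, so lesions differed widely. Its call ended in 13 of the 18 fits that left out 1 library (highest adjusted p = 0.0961), all except those without PL replicate 2, 3, 4 or 5 or NCT replicate 7, and neither gene was called without the libraries high in Pth or Lipf. With the number block neither was called (adjusted p = 0.180 for Spp1 and 0.144 for Alpl), and Spp1 was not called with limma-voom (adjusted p = 0.139), in females alone (adjusted p = 0.267), with no filter (adjusted p = 0.0616) or with the epithelial score (adjusted p = 0.0712). Fits without 1 library aside, the Spp1 call ended in 7 of 14 alternatives and the Alpl call in 3. Between PL and NT and between NT and NCT 0 were called by any tool.

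Of 14 T and NK cell targets of Runx3, 7 were tested between PL and NT (median 0.02), 8 between NT and NCT (0.11) and 6 between PL and NCT (0.27). None passed with edgeR, DESeq2 or limma-voom, and 2, 0 and 1 had an unadjusted p under 0.05. The example with the smallest p in PL against NT was Bcl2l11, a pro-apoptotic gene (0.39, SE 0.15, adjusted p = 0.157).

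A list of 22 transcription factors of blood cells shares genes such as Spi1, Lyl1 and Tal1 with the Runx1 targets above, so the lists are not independent. Of the 22, 15 were tested between PL and NT. Their median was -0.40 and 13 were negative, but 0 passed with edgeR (5 at an unadjusted p under 0.05, all lower, DESeq2 3, limma-voom 0). Lyl1 was at -1.08 (SE 0.35, adjusted p = 0.113), with 3.03 ± 2.44 CPM in PL and 5.65 ± 2.71 CPM in NT. Between NT and NCT the median was 0.13 and 0 passed with any tool (2 at an unadjusted p under 0.05). Between PL and NCT Ebf1, a factor of B cells that stromal and fat cells also use, fell, with 41.2 ± 13.0 CPM in PL and 72.9 ± 21.4 CPM in NCT (-0.83, SE 0.18, adjusted p = 0.00500). Without the libraries high in Pth or Lipf that gene was at -0.64 (adjusted p = 0.0584), and in females alone at -0.44 (adjusted p = 0.215).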

How the data were processed

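RNA of 27 laser-captured thyroid samples was extracted with the Qiagen miRNeasy Micro kit and made into 3′ end libraries, per the labels' protocols. The authors deposited raw read counts per gene, whole numbers with no normalization. The submitters' processing notes name STAR, featureCounts, DESeq2 and the build GRCm38, with no version. How strands and molecular identifiers were treated is not stated there. Of 54532 rows, 54409 matched a name in GENCODE M21.

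Members and gene lists were chosen with earlier results of these data known. Comparisons used edgeR 4.0.16 in R 4.3.3 (quasi-likelihood F test, TMM factors, filterByExpr with minimum count 10, Benjamini-Hochberg over all genes tested, threshold 0.05) on the libraries of the 2 groups compared. PL against NT had the mouse as a block. The pairing comes from the mouse numbers in the labels, and the deviations of the 9 pairs correlated at -0.01 to 0.23, above 0.1 in 6. SE were derived from F and are approximate. Levels in CPM were scaled over 27 libraries (15233 genes passing the filter), and log2 CPM used a prior count of 2. Correlations had exact two-sided permutation tests, adjusted over 48 relations. The 20 relations of the finer scores were adjusted among themselves only. Each library is a separate mouse within its group, and the lowest chi-square per degree of freedom between 2 libraries of a group was 13.2, above sampling noise.

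Genes were named by rule. The rule took the members, each coregulator that passed or else the smallest p values, up to 3 members of other lists by smallest p in PL against NT, fixed markers, and the 5 genes most like Runx1. Cldn4, Krt7, Epcam, Smad1, Spp1, Alpl and Ebf1 were refitted in all settings after their calls were seen, and some genes of the rule are not reported here, in text or figures. Alternatives covered other scaling factors, DESeq2 1.42.0, limma 3.58.1 (voom), filters, females only, marker scores, sex and number block as covariates, libraries over 2000 CPM of Pth or Lipf left out, and each replicate left out. The tests were checked on simulated data with known changes and no mouse effect. Of changes of 1 on the log2 scale, 58.3% were recovered for PL against NT, 60.8% for NT against NCT and 70.4% for PL against NCT. Of changes of 2 on that scale the values were 92.8%, 91.3% and 93.5%. Smaller or noisier changes can thus go uncalled.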

Additional observations from a re-analysis of the deposited data

Results flagged for a closer look

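A sample was far from the other 8 of its group in 5 of 48 sets of gene and group that were looked at, and chance flags about 1 in 20. Runx3 stood at 24.1 CPM in NCT replicate 5, against 6.77 to 14.7 CPM in the other NCT libraries. That library also held 4488 CPM of Pth and the highest leukocyte score of NCT (4.70). Ptprc (165 CPM) and Spi1 (49.9 CPM) were far above the rest in NT replicate 6, which had the highest leukocyte score of the series (5.36) and the highest Runx1 level of NT (46.6 CPM). Without that library the Runx1 difference of NT against NCT was 0.95. Krt18 stood at 364 CPM in NT replicate 2 and at 227 CPM in NCT replicate 8.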

How the results depend on the processing

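Runx1 kept its direction in every alternative run. For the comparisons with NCT this is no independent support, since the family was chosen by these values and the alternatives refit the same libraries. PL against NT uses the same NT libraries. NT against NCT ranged from 0.82 to 1.19, PL against NCT from 0.62 to 1.01 and PL against NT from -0.37 to -0.13 (adjusted p = 0.490 to 0.800). With 1 library left out they ranged from 0.93 to 1.10, 0.66 to 0.90 and -0.38 to -0.12. Without the replicate block PL against NT was -0.20, with adjusted p = 0.683, and of the calls named here those of Cbfa2t3 (adjusted p = 0.0600) and Krt7 (adjusted p = 0.229) ended. No other member passed the threshold in any alternative. Signs turned for Cbfb in PL against NT with females only (0.0026), Runx2 in PL against NT with the leukocyte score (0.0202), Runx2 in NT against NCT with females only (-0.0599) and the leukocyte score (-0.25), and Runx3 in PL against NCT with females only (-0.0903). Runx2 in PL against NCT was positive with limma-voom (0.12), the epithelial score (0.35), sex (0.0705) and the number block (0.18, or 0.31 with the block read from the titles, an alternative chosen after seeing the data), and -0.24 to 0.32 with 1 library left out. With 1 library left out Runx2 ranged from -0.67 to -0.12 in PL against NT and 0.03 to 0.49 in NT against NCT. The causes were not tested.

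Counts of called genes moved more. PL against NT, 445 in the main analysis, gave 1285 with DESeq2, 703 with limma-voom, 832 with no filter, 6 in females, 95 without the mice high in Pth or Lipf, 293 with the leukocyte score, 249 with the epithelial score, and 137 to 529 without 1 mouse (257 without mouse 2, 209 without 3, 240 without 4, 234 without 7, 137 without 8). NT against NCT, 4 in the main analysis, gave 134 with DESeq2, 15 with no filter, 1 each in females, without libraries high in Pth or Lipf and with the number block, 0 with the leukocyte or epithelial score, 13 with the block read from the titles, and 0 to 12 with 1 library left out (1 without NT replicate 2, 0 without NT replicate 4 or 6, 12 without NCT replicate 7, 9 without NCT replicate 8). PL against NCT, 1433 in the main analysis, gave 450 in females, 797 without libraries high in Pth or Lipf, 714 with the epithelial score, 464 with the number block, 700 with the block read from the titles, and 1126 to 1655 with 1 library left out.

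Weak correlations turned sign. With a summed score these were Runx1 with epithelium over paired differences (0.0032) and with follicle in PL (-0.41), Runx2 with follicle in PL (-0.59), NT (-0.0811), NCT (-0.20) and paired differences (-0.11), Runx3 with epithelium in NT (0.17) and follicle in NCT (-0.0473), and Cbfb with follicle in PL (-0.19) and leukocytes in NCT (-0.0235). With a prior count of 0.5 it was Cbfb with follicle over paired differences (0.0114). Without libraries high in Pth or Lipf they were Runx2 with epithelium in NT (-0.37) and follicle in NT (-0.66), NCT (-0.40) and paired differences (-0.31), Runx3 with epithelium in NCT (0.71) and follicle in NCT (-0.15) and paired differences (-0.72), and Cbfb with epithelium in NT (0.61), NCT (0.37) and paired differences (0.16) and follicle in NT (0.10) and paired differences (0.38). The relation of Runx2 with leukocytes over paired differences stayed at 0.96 with a summed score, 0.96 with the other prior count and 0.97 without those mice, where 6 mice left an adjusted p of 0.169.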
